A study of Bos taurus with 20 samples.

Results

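The cytosolic ribosomal protein genes were taken from the raw count table by symbol: every RPL or RPS gene with a number, together with RPLP0, RPLP1, RPLP2 and RPSA, and without the RPS6K kinases. The rule matched 83 of the 33063 named genes, 50 for proteins of the large (60S) subunit and 33 for proteins of the small (40S) subunit. Of these, 81 passed the filter on low counts and entered the test. RPL10L had 0 counts in all 20 clones and RPL3L had between 0 and 10 counts per clone, and neither was tested.

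The data were RNA-seq counts from 20 clones of bovine mesenchymal stem cells (MSCs), 1 library per clone. Each clone had been expanded from a single cell, sorted from passaged MSC cultures of the visceral fat of a Holstein Friesian x Aberdeen Angus calf. The medium held 10% fetal bovine serum and basic fibroblast growth factor (5 ng/ml). After sorting it also contained conditioned medium from MSC cultures of the same animal. The labels name no genetic alteration, and RNA was taken from undifferentiated cells. The 10 adipogenic (A) clones stained strongly for lipid in a separate differentiation test, and the 10 non-adipogenic (N) clones, per the labels, did not stain. Animals 17 and 20 gave 1 A and 1 N clone each, and animals 22 and 23 gave 4 of each. Clones of 1 animal share their source, and each clone is the progeny of 1 cell and not a sample of the whole fat depot.

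Each clone had between 14615493 and 43111345 counts on named genes. The 13 stromal markers were all expressed above the test's filter, with summed levels of 44517 to 65092 CPM (counts scaled to a common library total) in A clones and 29935 to 54781 CPM in N clones. Summed leukocyte markers lay between 1.41 and 13.6 CPM, endothelial markers between 1.41 and 106 CPM and adipocyte markers between 36.1 and 150 CPM. Smooth muscle and pericyte markers were abundant, at 4419 to 11708 CPM in A clones and 1084 to 10037 CPM in N clones. The median level of mesothelial markers lay 6.12 and 6.09 log2 units above the mean over clones in N clones 22-5 and 22-9, and 3.41, 3.35 and 2.29 above it in A clones 22-11, 22-16 and 23-62, and results were also computed without 22-5 and 22-9. In bulk libraries, fewer cells of a type and less RNA per cell cannot be told apart.

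Ribosomal proteins clothe the ribosomal RNA of the small subunit, which decodes the messenger RNA, and of the large subunit, which joins amino acids into a chain. Most are made in equal numbers, since a ribosome holds 1 copy of nearly every one of them. Their messenger RNAs are abundant in growing cells and carry a pyrimidine tract at the 5′ end through which mTOR complex 1 and LARP1 control their translation, so RNA level and protein output can part. Several of these genes, RPL4 among them, serve as reference genes in quantitative PCR because their RNA is taken to be steady. The study used RPL4 in this way, together with TOP2B, which is not a ribosomal protein gene. Its primer pair is shown because RPL4 is among the members described below. The values below are RNA-seq CPM of undifferentiated clones. The study's quantitative PCR also covered further clones, sorted cells and differentiated cells, so these values do not test its normalisation. The sequences are written 5′ to 3′ in lower case, with no base marked.
RPL4 forward primer: caagagtaactacaacctcc
RPL4 reverse primer: ggactctgcgatgaatcttc

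Between A and N clones the ribosomal protein genes differed little. Of the 81 tested, 1 passed edgeR's quasi-likelihood test at an adjusted p under 0.05 with animal as a block, and it was lower in A clones. This was 1.23% of the members, against a background of 20.6% of all 12900 genes tested, 10.3% of them higher in A clones and 10.3% lower. None was higher in A clones, and none passed the test with a change of at least 2-fold, which 5.76% of all genes did. At an unadjusted p under 0.05, 4 members were lower and 0 higher, against 36.1% of all genes in either direction (18.5% lower and 17.7% higher). Those 4 were RPL10A, RPL6, RPL3 and RPL5, all of the large subunit, of which RPL6 was named only after its values were seen. DESeq2's Wald test and limma-voom also called RPL10A and no other member.

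The estimates were also narrow. The 95% interval of the fold change lay within 2-fold in either direction for all 81 members, against 72.7% of all genes, and within 1.5-fold for 78 members (96.3%), against 48.8% of all genes. The 3 members whose interval reached past 1.5-fold were RPL10A, RPL22L1 and RPS27L. Narrow estimates were not particular to the members. The median SE of the log2 fold change was 0.12 for members and 0.15 for all genes. It was 0.09 for initiation factors, 0.10 for mitochondrial ribosomal proteins and 0.10 for elongation factors. For genes of ribosomal DNA transcription, and for S6 kinases with mTOR complex 1, it was 0.12. In CPM, no member had all A clones above all N clones or all below, which was so for 0.225% and 0.093% of all genes. The plot of fold changes shows how closely both subunits lay around zero.

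**Figure D1:**
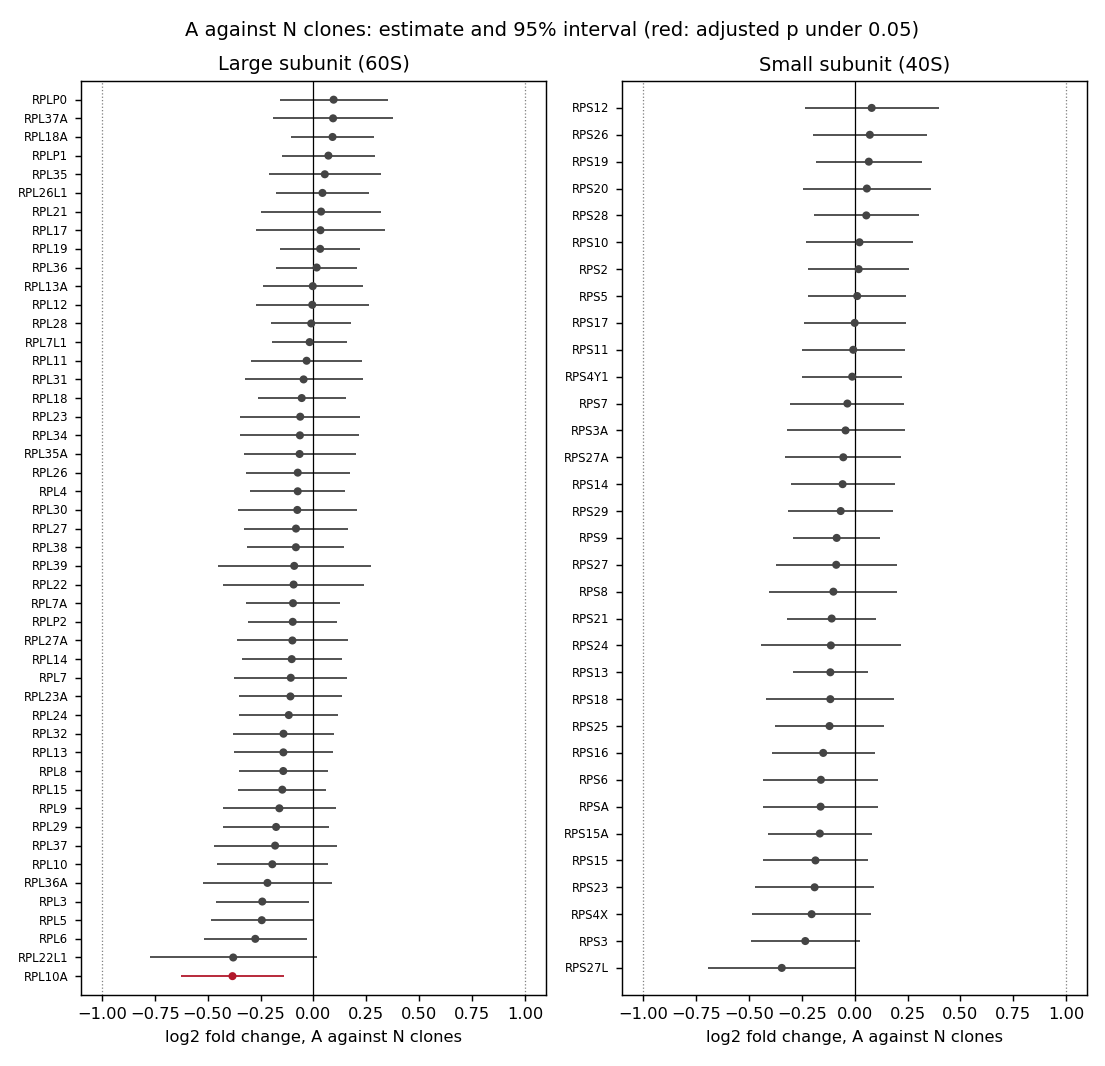
Log2 fold change of A against N clones (horizontal axis) for each of the 81 tested ribosomal protein genes (vertical axis), large subunit left and small subunit right, from edgeR with animal as a block; points are estimates, bars are 95% intervals, and dotted lines mark a 2-fold change. The interval of RPL10A (red) alone belongs to a gene past the threshold, and no interval crosses a dotted line.

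The small changes leaned to lower levels in A clones. The log2 fold change was below 0 for 62 of 81 members (76.5%), against 51.2% of all genes. The median over members was -0.08, with a range from -0.38 to 0.10, where the median over all genes tested was -0.01. This lean rested in part on single clones: without A clone 23-14, 47 of 81 were below 0 with a median of -0.02, and the median was -0.06 without N clone 22-17 and -0.05 without N clone 23-10. It was -0.15 without N clones 22-5 and 22-9, and without animal 23 it turned to 0.08, with 50 of 81 members above 0. With library totals alone all 81 were below 0, with a median of -0.19, while the median over all genes moved to -0.13. Large-subunit members had a median of -0.08 and small-subunit members a median of -0.09, so neither subunit stood out. The 1194 genes at or above the level of the lowest member that is not a paralog, which include those members, had a median of 0.05. The mean of A minus N was below 0 in all 4 animals for 6 members (RPL3, RPL6, RPL10A, RPL22L1, RPS3 and RPS27L), 7.41% of them, against 17.4% of all genes. No member was above 0 in all 4 animals, and 33% of all genes kept one sign in all 4.

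RPL10A, the protein of the mobile L1 stalk beside the exit site for transfer RNA, was the member that passed the test. In A clones it ran from 214 CPM in clone 23-14 to 426 CPM in clone 23-68, with a median of 381 CPM. In N clones it ran from 369 CPM in clone 22-5 to 542 CPM in clone 17-23, with a median of 467 CPM. The groups overlapped, but 4 A clones (20-106, 22-27, 22-121 and 23-14) lay below every N clone, and no A clone lay above every N clone. The means were 351 ± 69.6 CPM in A clones and 458 ± 58.3 CPM in N clones (SD, n = 10 clones each). The log2 fold change was -0.38 ± 0.12 (SE), with an edgeR Benjamini-Hochberg adjusted p of 0.0291. A clones were lower in each animal, by differences of -0.40, -0.72, -0.23 and -0.50 in mean log2 CPM in animals 17, 20, 22 and 23. Leaving out a clone ended the call for N clone 20-15 (adjusted p = 0.0572), A clone 20-106 (0.0577) and A clone 22-27 (0.0531), with log2 fold changes of -0.35, -0.35 and -0.35. Over 40 alternative fits the log2 fold change stayed between -0.49 and -0.23, the adjusted p ranged from 0.00944 to 0.448, and 31 fits kept the call.

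RPL3, which reaches from the surface to the peptidyl transferase centre, ran from 392 to 700 CPM in A clones (median 610) and from 609 to 788 CPM in N clones (median 703). Its log2 fold change was -0.24 ± 0.10 (edgeR adjusted p = 0.104), and every N clone exceeded 5 of the A clones. RPL6, another large-subunit protein, ran from 339 to 706 CPM in A clones (median 596) and from 592 to 795 CPM in N clones (median 703). It also had 5 A clones below every N clone, with a log2 fold change of -0.28 ± 0.12 (edgeR adjusted p = 0.0977). RPL5 binds 5S ribosomal RNA together with RPL11, and the free complex restrains MDM2 and so stabilises p53. RPL5 had a mean of 512 ± 95 CPM in A clones and 605 ± 74.8 CPM in N clones, a log2 fold change of -0.24 ± 0.12 (edgeR adjusted p = 0.134). Its partner RPL11 had 469 ± 101 CPM in A clones and 477 ± 61.4 CPM in N clones, a log2 fold change of -0.03 with a 95% interval from -0.30 to 0.23.

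None of the 3 proteins of the stalk that recruits elongation factors passed the test. RPLP0, its base, ran from 797 to 1957 CPM in A clones (median 1473) and from 1191 to 1790 CPM in N clones (median 1344), with a log2 fold change of 0.10 ± 0.12 (edgeR adjusted p = 0.598). The A clones thus held both the lowest value, in 23-14, and the highest, in 22-16. RPLP1 had means of 828 ± 118 CPM in A clones and 788 ± 119 CPM in N clones, and RPLP2 309 ± 47.6 CPM and 329 ± 37.2 CPM, with log2 fold changes of 0.07 and -0.10 and edgeR adjusted p of 0.658 and 0.503.

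RPL4, whose long loop lines the tunnel through which the new chain leaves, ran from 609 CPM (clone 23-14) to 1135 CPM in A clones, with a median of 946 CPM. In N clones it ran from 786 CPM to 1185 CPM (clone 17-23), with a median of 1000 CPM. The groups overlapped almost fully apart from clone 23-14, which lay below every N clone. The log2 fold change was -0.07 ± 0.11, with a 95% interval from -0.30 to 0.15 (edgeR adjusted p = 0.642), so a difference in RPL4 of more than 0.30 log2 units in either direction lay outside the interval. RPL13A, among the other named members, had 797 ± 146 CPM in A clones and 796 ± 103 CPM in N clones. RPS19, a 40S assembly protein whose loss causes Diamond-Blackfan anaemia, had 602 ± 109 CPM in A clones and 575 ± 84.9 CPM in N clones.

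In the small subunit no member passed the test. RPS3, at the channel where messenger RNA enters, ran from 337 to 737 CPM in A clones (median 607) and from 564 to 878 CPM in N clones (median 707). Its log2 fold change was -0.23 ± 0.12 (edgeR adjusted p = 0.177), and every N clone exceeded 3 of the A clones. RPSA, also known as the laminin receptor precursor, had 1177 ± 217 CPM in A clones and 1326 ± 244 CPM in N clones (edgeR adjusted p = 0.381). RPS6, the substrate of the S6 kinases downstream of mTOR complex 1, had 455 ± 95.3 CPM and 509 ± 79.9 CPM (edgeR adjusted p = 0.386), and RPS2, a substrate of the methyltransferase PRMT3, 1494 ± 275 CPM and 1475 ± 221 CPM (edgeR adjusted p = 0.921).

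What set clones apart was a shift shared by nearly all members. The members took 2.21% of all counts on named genes in A clone 23-14 and 4.93% in N clone 23-10, with the other 18 clones between. A clones had 3.71 ± 0.738% (median 3.81%) and N clones 4.21 ± 0.588% (median 4.28%), a difference smaller than the SD of either group, and with libraries scaled by TMM factors the means were 3.84 ± 0.696% and 4.03 ± 0.508%. The small subunit made up 42.2% to 44.1% of this pool in every clone, 43.1 ± 0.485% in A clones and 43.0 ± 0.725% in N clones.

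**Figure D2:**
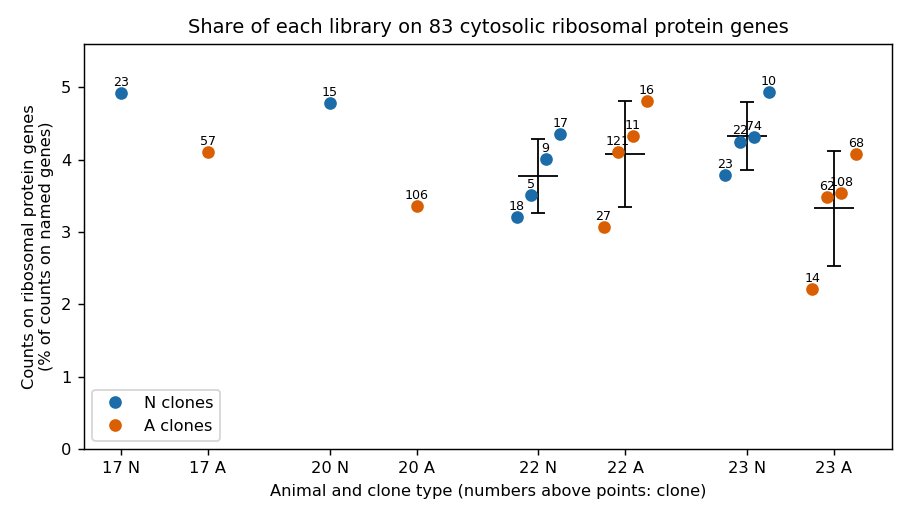
Percentage of counts on named genes that fell on the 83 ribosomal protein genes (vertical axis), per clone, by animal and clone type (horizontal axis); numbers above points name the clone, and horizontal lines with bars are the mean and SD of 4 clones. A and N clones overlap in animals 22 and 23, and in animal 23 the A clones average 3.33% and the N clones 4.32%.

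The order of A and N clones was not the same in the animals with 4 clones of each type. In animal 22 the share was 4.07 ± 0.735% in A and 3.77 ± 0.513% in N clones (n = 4 each), and in animal 23 it was 3.33 ± 0.791% and 4.32 ± 0.470%, with A clone 23-68 (4.08%) above N clone 23-23 (3.79%). The A clone was lower in both other animals, at 4.11% against 4.92% in animal 17 and 3.35% against 4.78% in animal 20. The share of unscaled counts was thus lower in A clones in 3 of 4 animals. With libraries scaled by TMM factors almost no difference remained in animal 17, at 4.51% in the A and 4.55% in the N clone. On that scale animal 20 had 3.79% (A) and 4.37% (N), animal 22 means of 4.07% and 3.70%, and animal 23 means of 3.46% and 4.16%. Fitted alone, animal 22 gave a median log2 fold change over members of 0.10 and animal 23 one of -0.28. In edgeR's test of the interaction between condition and animal, the estimate (animal 23 minus animal 22) was below 0 for all 81 members, or 100%, against 45.2% of all genes, with a median of -0.40 and a range from -0.87 to -0.04. The median SE of these estimates was 0.26. None passed at an adjusted p under 0.05, which 0.031% of all genes did, and 4 members had an unadjusted p under 0.05 (4.94%, against 9.07% of all genes). These were RPL39 (-0.87 ± 0.35), RPS28 (-0.59 ± 0.24), RPL21 (-0.63 ± 0.28) and RPL11 (-0.57 ± 0.26), with edgeR adjusted p of 0.490 to 0.542. Since the members moved together within clones, the 81 signs are not separate observations. The count at an unadjusted p under 0.05 ran from 0 to 31 when clones were left out in turn, with 31 without A clone 23-68, 24 without N clone 22-17 and 20 without A clone 22-27. It was between 0 and 7 without any other clone, and no member passed at an adjusted p under 0.05 in any of these fits.

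Within clones the members went up and down together. In 15 of the 20 clones at least 70 of the 81 members lay on one side of their own mean over clones, above it in 9 clones and below it in 6. In A clone 23-14 all 81 members lay below their means, by a median of -0.69 log2 units (from -1.09 for RPL36A to -0.09 for RPS27L), and 74 members had their lowest value there. In A clone 22-16 all 81 lay above their means, and 21 had their highest value there. After the means of condition and animal were removed, the mean over members in each clone accounted for 80.3% of the members' squared residuals. The same share was 3.96% for the 1194 genes of like or higher level, which include the members that are not paralogs. For all genes tested, whose clone means are centred by the scaling, the share was 0.765%. It was 77.1% for the 21 proliferation genes, 67.1% for 6 mesothelial genes and 48.3% for 13 elongation factor genes, so other sets of genes also shared shifts within clones. A set of few genes has a higher share by construction, so the sizes of these shares cannot be ranked between sets of unlike size.

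**Figure D3:**
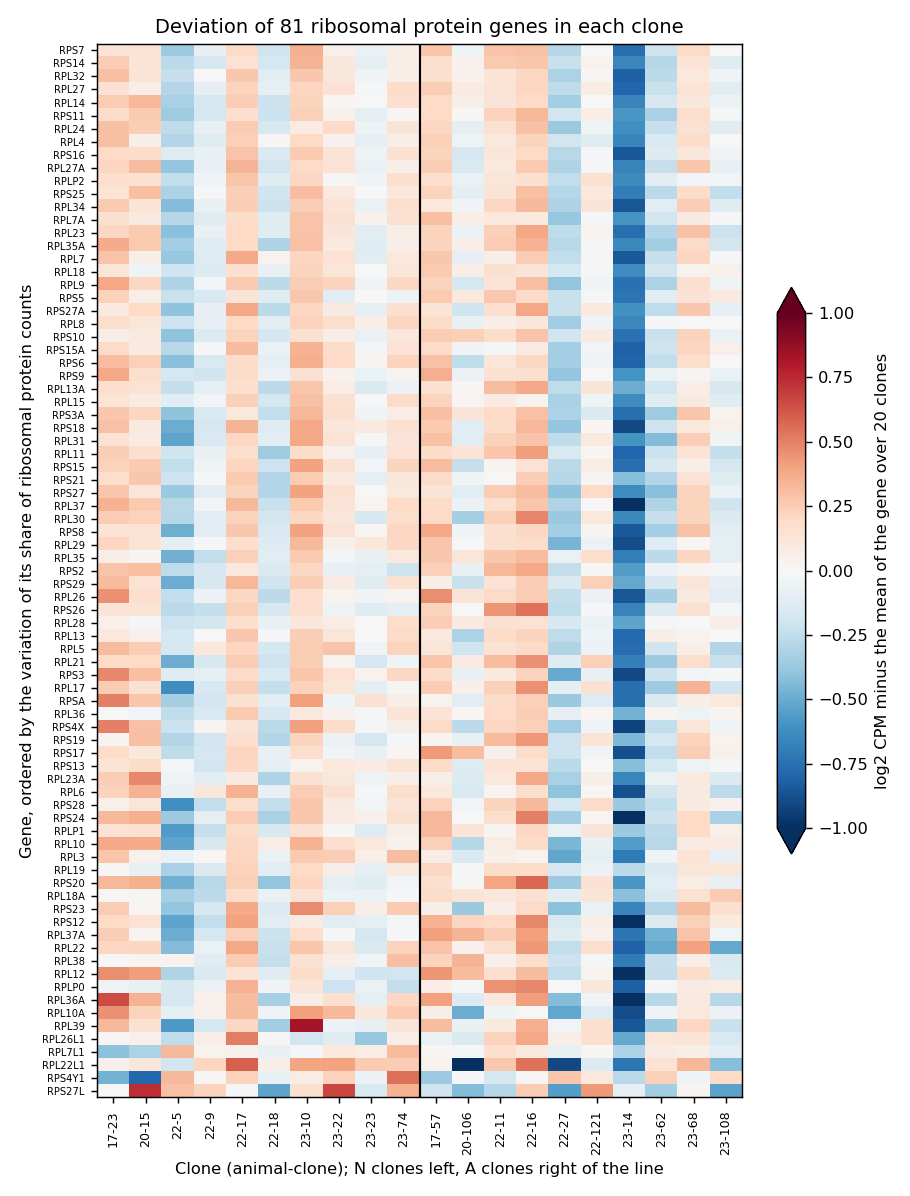
Deviation of log2 CPM from the mean over 20 clones (colour, log2 units) for the 81 tested ribosomal protein genes (vertical axis, ordered by how much their share of the ribosomal protein counts varied) in each clone (horizontal axis, N left and A right of the line). Clone 23-14 is below the mean for all 81 genes and clone 22-16 above it for all 81, while RPS27L, RPS4Y1, RPL22L1 and RPL7L1 at the bottom follow other patterns.

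The span between the highest and the lowest clone had a median of 2.13-fold over the 81 members (from 1.46- to 3.75-fold), and 1.70-fold without clone 23-14. In clone 23-14 the elongation factor list also lay below its mean, by a median of -0.49, and the proliferation list by -0.42. Clone 20-106 had the lowest proliferation list, at -2.14, with a median ribosomal protein deviation of -0.04, and N clones 22-5 and 22-9 had proliferation medians of 1.32 and 1.11 with ribosomal protein medians of -0.28 and -0.11. The part of cell division, RNA quality or library preparation in these shifts was not tested.

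Relative to each other the members were steadier than in the library as a whole, which their shared shift largely entails. A share divides each member by the sum of the members, so a shift common to them drops out. No other set of genes was scaled to its own sum for comparison. The coefficient of variation over the 20 clones had a median of 17.2% for CPM (from 11.3% to 28.3%) and 7.63% for a member's share of all ribosomal protein counts (from 3.80% to 28.5%), and it was lower as a share for 78 of the 81 members. The members that varied least as a share were RPS7 (3.80%), RPS14 (3.89%), RPL32 (4.19%) and RPL27 (4.33%), picked after their values were seen. The 3 members that did not become steadier were RPS27L, RPS4Y1 and RPL7L1, all of them paralogs of another ribosomal protein gene.

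**Figure D4:**
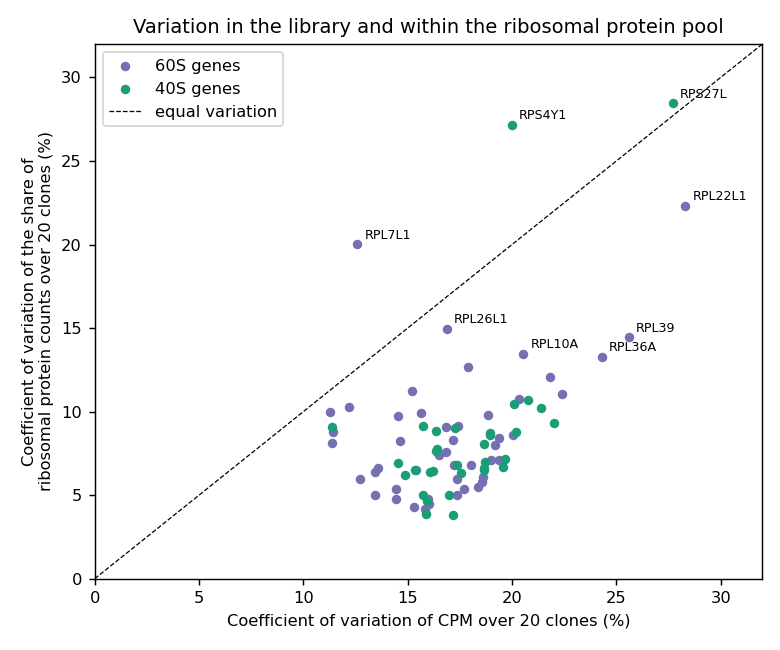
Coefficient of variation over 20 clones of each tested gene's share of ribosomal protein counts (vertical axis, %) against that of its CPM (horizontal axis, %), 60S genes in violet and 40S genes in green. All but 3 genes lie below the dashed line of equal variation, and RPS27L, RPS4Y1 and RPL7L1 lie above it.

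As shares of the pool, 45 members had a lower mean and 36 a higher mean in A clones. At least 5 A clones lay under the lowest N clone for 9 members and over the highest N clone for 9 members. RPL10A took 0.741% to 1.12% of the ribosomal protein counts in A clones (median 0.901%) and 1.06% to 1.21% in N clones (median 1.14%), and 9 of 10 A clones were under the lowest N clone. RPL6 took 1.39% to 1.618% in A clones and 1.605% to 1.88% in N clones, and RPL5 1.19% to 1.41% and 1.39% to 1.64%, each with 9 of 10 A clones below every N clone. RPS3 took 1.37% to 1.65% in A clones and 1.58% to 1.93% in N clones, with 7 A clones below every N clone. RPL32 also had 7 A clones below every N clone, and RPS15 and RPS16 had 6. In the other direction RPLP1 took 1.85% to 2.57% in A clones and 1.71% to 2.04% in N clones, with 7 A clones above every N clone. RPL21 and RPL37A also had 7 A clones above every N clone, and RPL17 and RPL35 had 6. These shares were looked at after the CPM were known, and the shares of 1 pool are not independent of each other. They sum to a fixed total, so lower shares of some members go with higher shares of others. A clones outside the range of the N clones were not counted over all genes on this scale, so these counts have no background.

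Scaling each library to its ribosomal protein counts in place of TMM, an alternative added after the data were seen, left RPL10A as the only member called by edgeR's quasi-likelihood test, with a log2 fold change of -0.32 ± 0.09 (adjusted p = 0.0333). On this scale 2.02% of all genes were lower and 6.5% higher in A clones, and the median over all genes was 0.09. RPL6 had -0.21 ± 0.09 (adjusted p = 0.136), RPL5 -0.17 ± 0.09 (0.215), RPS3 -0.17 ± 0.09 (0.219) and RPLP1 0.16 ± 0.10 (0.292).

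The paralogs are near copies of a core member, and several are known to be used in particular tissues or states. Their counts may depend on how reads shared between copies and pseudogenes were assigned, since only uniquely mapped reads were counted. RPL3L, made mainly in striated muscle, had 0.268 ± 0.171 CPM in A clones and 0.147 ± 0.0977 CPM in N clones, and RPL10L, made mainly in testis, had no counts. RPL39L had no row that the symbol rule matched.

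RPL22L1, whose level RPL22 is known to restrain, had the largest coefficient of variation of CPM of all tested members. It ran from 57.6 CPM (clone 20-106) to 208 CPM (clone 22-16) in A clones, with a median of 137 CPM. In N clones it ran from 125 CPM (clone 22-5) to 216 CPM (clone 22-17), with a median of 167 CPM. The groups overlapped, with 4 A clones (20-106, 22-27, 23-14 and 23-108) below every N clone. The means were 132 ± 49.2 CPM and 167 ± 25.6 CPM, with a log2 fold change of -0.38, a 95% interval from -0.77 to 0.02 and an edgeR adjusted p of 0.153. RPL22L1 counts were 80.6 ± 26.6% of RPL22 counts in A clones, from 33.5% in 20-106 to 133% in 23-62, and 95.6 ± 11.7% in N clones, from 76.2% to 112%. RPL22 itself had 167 ± 46.3 CPM in A clones and 177 ± 30.4 CPM in N clones.

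RPS27L, a paralog of RPS27 that p53 induces, ran from 69.99 CPM (clone 22-27) to 138 CPM (clone 22-121) in A clones and from 71.0 CPM (clone 22-18) to 171 CPM (clone 20-15) in N clones, with medians of 86.9 and 117 CPM. Its log2 fold change was -0.34, with a 95% interval from -0.69 to 0.00 (edgeR adjusted p = 0.140). In clone 23-14, where the other members were low, RPS27L deviated by only -0.09 log2 units, and its counts there were 51.8% of those of RPS27, the highest of the A clones. Over groups this percentage was 33.6 ± 8.26% in A clones and 40.2 ± 11.1% in N clones.

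RPS4Y1 and RPS4X encode near-identical forms of the same 40S protein. RPS4Y1 had 109 ± 15.9 CPM in A clones and 112 ± 27.6 CPM in N clones (log2 fold change -0.01, edgeR adjusted p = 0.950), and RPS4X 440 ± 95.2 CPM and 508 ± 87.6 CPM (-0.20, edgeR adjusted p = 0.283). RPS4Y1 counts ran from 11.0% of those of RPS4X in N clone 20-15 to 36.6% in A clone 23-14. In animal 17 it was 11.8% in the N and 15.9% in the A clone, and the A clone of animal 20 had 27.5%. RPL26L1, at 23.4 ± 3.88 CPM in A clones and 22.7 ± 4.07 CPM in N clones, had counts of 8.12 ± 1.57% and 7.36 ± 1.33% of those of RPL26, which had 298 ± 69.6 CPM and 311 ± 47.5 CPM. RPL7L1, an RPL7 relative with a part in assembling the large subunit, had 74.5 ± 6.59 CPM and 76.0 ± 12 CPM, and its lowest value was in N clone 17-23 and not in 23-14.

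**Figure D5:**
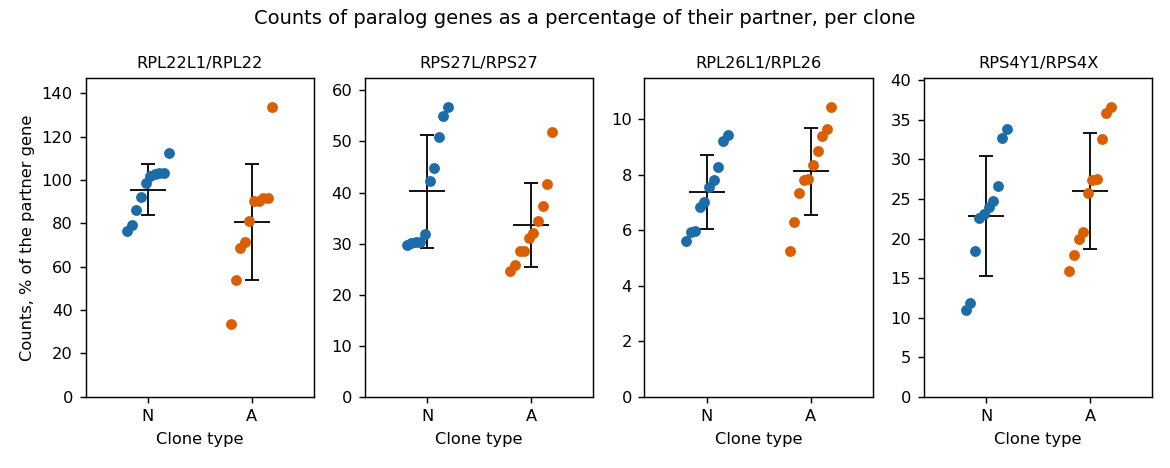
Counts of 4 paralog genes as a percentage of the counts of their partner (vertical axes, each from 0) in the N and A clones (horizontal axes); points are clones, lines and bars are the mean and SD of 10 clones. RPL22L1 spreads from 33.5% to 133% of RPL22 in A clones and from 76.2% to 112% in N clones.

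RPL39, a very small protein of the exit tunnel, had the second largest SD of log2 CPM within groups and animals (0.39, after RPL22L1 at 0.44), with 229 ± 51.4 CPM in A clones and 244 ± 70.2 CPM in N clones, with its highest value of 407 CPM in N clone 23-10. The members with the smallest SD on this log2 scale were RPS13 (0.17, 311 ± 41.3 CPM in A and 336 ± 28.4 CPM in N clones), RPL19 (0.18, 726 ± 84.2 CPM and 710 ± 81.4 CPM) and RPL7L1 (0.18). The edgeR adjusted p values of RPL39, RPL19 and RPS13 were 0.732, 0.826 and 0.333.

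Other genes that encode cytosolic ribosomal proteins lay outside the rule on symbols, and none of those given here passed the test. FAU, ubiquitin-like protein fused to RPS30, had a log2 fold change of 0.15 ± 0.10 (edgeR adjusted p = 0.276), RACK1, the scaffold on the head of the small subunit, -0.02 ± 0.11 (0.928), and RPL36AL, a copy of RPL36A, -0.25 ± 0.11 (0.118).

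Other genes of the translation machinery were counted in lists chosen with earlier results of these data known, and no difference between lists was tested. Of 79 mitochondrial ribosomal protein genes, 11 fell and 1 rose in A clones (15.2%, against 20.6% of all genes), with a median log2 fold change of -0.09. MRPL3 fell by 0.40 ± 0.09 on the log2 scale (edgeR adjusted p = 0.00538), MRPL58, a release factor, by 0.38 ± 0.09 (0.00982) and MRPS22 by 0.33 ± 0.09 (0.0144), and MRPS18A rose by 0.34 ± 0.09 (0.0156). The clone mean accounted for 34.4% of the squared residuals of this list, against 80.3% for the cytosolic members. The number of these genes called was 6 without N clone 23-22, 7 without N clone 23-74 and 7 without N clones 22-5 and 22-9.

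None of 13 elongation factor and poly(A)-binding protein genes passed edgeR's test, whose median was -0.08. Among 35 initiation factors 2 rose and 4 fell (17.1%, against 20.6% of all genes): EIF4EBP2, a repressor of cap binding, rose by 0.78 ± 0.24 (edgeR adjusted p = 0.0284), and EIF4B, a helper of the helicase EIF4A, fell by 0.41 ± 0.10 (0.0119). Of 68 ribosome biogenesis factors 7 rose and 2 fell (13.2%), with a median of 0.07. NMD3, which carries the large subunit out of the nucleus, rose by 0.64 ± 0.12 (edgeR adjusted p = 0.00323), GNL2, a nucleolar GTPase of the large subunit, by 0.33 ± 0.08 (0.0108) and UTP6 by 0.30 ± 0.08 (0.0170), while KRR1 and UTP18, both of small-subunit assembly, fell by 0.39 ± 0.10 and 0.32 ± 0.09 (0.0149 and 0.0242). Of 14 genes of ribosomal DNA transcription 3 rose and 0 fell (21.4%), namely MYC by 0.60 ± 0.17 (edgeR adjusted p = 0.0232), POLR1E by 0.35 ± 0.10 (0.0188) and RRN3 by 0.32 ± 0.09 (0.0215). The 21 proliferation genes, given because ribosome number follows growth in many cells, had 11 lower and 0 higher in A clones (52.4%), with a median of -0.87. Whether the ribosomal protein RNA moved with proliferation across clones was not tested.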

How the data were processed

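Per the labels and the study's methods, the authors trimmed reads with Trimmomatic 0.36, aligned them to ARS-UCD1.2 with STAR 2.5.2b and counted unique reads in exons with featureCounts (Subread 1.5.2). The strand setting and the handling of overlapping genes are not given in the sources used here. The deposited values are raw counts per gene and clone. The 1 row without a name, 0.113% to 0.333% of counts, was left out.

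Counts of all genes were fitted with edgeR 4.0.16 (quasi-likelihood F test, TMM factors, filterByExpr, robust, animal as a block) in R 4.3.3, and p-values were adjusted over 12900 genes by the Benjamini-Hochberg method. A call means an adjusted p under 0.05. CPM use TMM-scaled totals, and log2 CPM a prior count of 2. The paired design comes from the animals: A and N deviations of 1 animal correlated at 0.253, 0.193, 0.241 and 0.440 in animals 17, 20, 22 and 23. Alternatives were DESeq2 1.42.0, limma-voom (limma 3.58.1), other scalings and filters, and fits without clones or animals. The p-values measure the spread between clones. The pipeline was tested on simulated data.

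Members and lists were chosen with earlier results of these data known. Named were members past the threshold, 14 fixed members with RPL4, paralogs with their partners, the 3 of highest and lowest mean CPM, the 3 of largest and smallest spread within groups, FAU, RACK1 and RPL36AL outside the symbol rule (a further result is not reported here), and at most 3 genes per direction from each list. All 83 symbols matched protein-coding genes of a RefSeq table for another assembly, so coordinates and lengths were not used here and levels were not compared between genes.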

Additional observations from a re-analysis of the deposited data

Results flagged for a closer look

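In 9 of 114 groups of 10 clones examined, the most extreme clone lay far from the nearest other clone, by a gap over Dixon's 95% limit, as a share of the group's whole range. Chance alone gives about 1 in 20 such groups. Of these, 7 concerned the lowest A clone, 23-14, in genes that move together, and are not separate observations. The gap there was 0.530 of the range for RPL4 (609 CPM, the next A clone 847), 0.482 for RPL5 (323 and 447), 0.616 for RPLP0 (797 and 1386), 0.482 for RPLP2 (203 and 266), 0.495 for RPS4X (244 and 364), 0.469 for FAU (179 and 218) and 0.509 for RACK1 (538 and 767). The highest N clone for RPL26L1 was 22-17, with 32.4 CPM against 23.8 CPM in the next and a gap of 0.50. The total count was highest in N clone 22-18, at 43111345 against 23425994 in the next N clone, a gap of 0.574.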

How the results depend on the processing

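The number of members called by edgeR's quasi-likelihood test was 1 (RPL10A) with TMM factors. It was 3 with library totals alone (RPL10A, RPL3 and RPL6), where the median over all genes moved to -0.125 and that over members to -0.195. It was 0 with counts summed per animal and condition, in animal 22 alone, in animal 23 alone, and without animal 20, 22 or 23, and RPL10A stayed below 0 in each. Of all genes these fits called 0%, 1.15%, 6.22%, 18.8%, 11.5% and 0.245%, against 20.6%, so the members' 0 says little there. Leaving out each clone in turn gave 0 to 1. Without the replicate block (animal) it was 1, and in every other setting it was 1. The number of mitochondrial ribosomal protein genes called, 12, became 21 with library totals alone, 0 with summed counts, in animal 22 alone, without animal 23 and when scaled to the ribosomal protein counts, 5 in animal 23 alone and without animal 22, 7 without N clones 22-5 and 22-9, and 6 to 14 with clones left out. The mean share on ribosomal protein genes in each group stayed within 1 SD between clones in all alternatives. Leaving out 1 of 10 clones could not move a mean that far, so this says little for those fits. Scaling by TMM factors moved the mean from 3.71% to 3.84% in A clones and from 4.21% to 4.03% in N clones. No interaction call was made in any alternative. The cause of the differences between settings was not tested. Fits without an animal lost that animal and its clones together, so the effect of fewer clones alone was not tested either.

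The sign of a log2 fold change turned 84 times, for 20 of the 26 named tested members, and in 0 of these did the gene pass the threshold. Clones left out in turn gave ranges of -0.047 to 0.044 for RPL13A, -0.026 to 0.069 for RPS2, -0.097 to 0.045 for RPS4Y1, -0.068 to 0.019 for RPL7L1, -0.084 to 0.038 for RPL11 and -0.157 to 0.026 for RPL39. RPL13A was 0.0023 without the replicate block, 0.0069 with DESeq2 size factors, 0.0070 in DESeq2's Wald test and 0.010 without animal 20, and where every clone had to hold 10 counts RPL13A was 0.013 and RPS4Y1 0.0038. With library totals alone RPLP1 was -0.040, RPLP0 -0.015, RPS19 -0.046, RPL19 -0.081, RPL26L1 -0.065 and RPS2 -0.092. With summed counts RPS19 was -0.0034, RPL26L1 -0.017, RPS4Y1 0.171, RPL7L1 0.146 and RPS2 -0.042. In animal 22 alone RPL11 was 0.250, RPS27 0.228, RPS6 0.098, RPL4 0.037, RPS13 0.018, RPL22 0.193, RPL13A 0.250, RPL26 0.123, RPSA 0.102, RPLP2 0.070, RPL39 0.345 and RPS4X 0.092. In animal 23 alone RPLP1 was -0.103, RPLP0 -0.038, RPS19 -0.066, RPL19 -0.096 and RPS2 -0.095. Without animal 22 RPLP1 was -0.042, RPS19 -0.105, RPL19 -0.020, RPS4Y1 0.030 and RPS2 -0.134. Without animal 23 RPL11 was 0.154, RPS27 0.091, RPL22 0.116, RPL13A 0.145, RPL26 0.081, RPS4Y1 0.093, RPL7L1 0.092, RPLP2 0.013 and RPL39 0.192. Without N clones 22-5 and 22-9 RPLP1 was -0.013, RPS19 -0.0025, RPL19 -0.023, RPL26L1 -0.019, RPS4Y1 0.013, RPL7L1 0.018 and RPS2 -0.045. Scaled to the ribosomal protein counts RPL11 was 0.036, RPL13A 0.076, RPS4Y1 0.082 and RPL7L1 0.058. The last pair of settings was chosen after seeing the data. Counts of 244 or more in every clone stand behind each tested member, so the spread between clones and not depth limits these estimates.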

Other observations

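Among genes around the ribosomal proteins, ZNF622, a large-subunit assembly factor, rose in A clones by 0.44 ± 0.07 on the log2 scale (edgeR adjusted p = 0.00163) and KPNB1, an importin that carries ribosomal proteins into the nucleus, by 0.27 ± 0.08 (0.0281), and none of the other 16 chaperone and importin genes passed the test. Of 20 tested genes of the S6 kinases and mTOR complex 1, RPS6KC1 rose by 0.30 ± 0.10 (edgeR adjusted p = 0.0405) and RPS6KA3 fell by 0.49 ± 0.16 (0.0379). The test thus called 11.1% of the chaperone and importin list and 10% of the S6 kinase list, both below the 20.6% of all genes. Of the 14 host genes of small nucleolar RNAs, 2 were in the table and neither passed the test.

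Some genes on the marker lists of other cells differed between clone types, and no list was tested as a set. Of all genes tested, 10.3% were higher in A clones and 10.3% lower. In lists this short, 1 gene moves the share widely. Higher in A clones were 3 of 8 tested smooth muscle and pericyte genes (37.5%: MYH11, CSPG4 and NOTCH3) and 2 of 7 adipocyte genes (28.6%: PLIN1 and CIDEA). So were 1 of 5 endothelial genes (20%: ERG), CD68 as the only tested leukocyte gene and COL3A1 of 13 stromal genes (7.69%). MSLN was lower among 6 mesothelial genes (16.7%). The part of these markers in the ribosomal protein values was not tested. ITGAM was at 0 in all A clones and TYROBP at 0 in all N clones.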
